A study of Mus musculus with 12 samples.

Results

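The 10 genes described here encode the transcription factors of the ATF4-CHOP stress pathway and genes known to lie downstream of them: Atf4, Atf3, Atf5, Ddit3 (the CHOP gene), Trib3, Chac1, Ppp1r15a (the GADD34 gene), Nupr1, Cebpb and Cebpg. They were taken by symbol from a table of 34513 mouse genes, all 10 were found, and all 10 were among the 18338 genes that passed the expression filter. RNA was sequenced from cultures of 3 mouse lines, the nontumorigenic melanocyte line Melan-A and the melanoma lines B16F0 and B16F10, each without treatment and after SX-682, an antagonist of the chemokine receptors CXCR1 and CXCR2. With 2 libraries for each line and treatment there were 6 groups and 12 libraries. The labels give no genotype beyond the line and describe the controls as having had no treatment, so whether they received the solvent, and the dose and the time of SX-682 in these cultures, are not given in the sources used here. Each line is a single culture line, so a difference between lines cannot be told apart from a difference in how they were derived or grown. The labels do not say whether the 2 libraries of a group came from separate cultures, and p-values then measure only the spread between these libraries, which may be technical.

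Cells that run short of amino acids or haem, accumulate misfolded protein in the endoplasmic reticulum or meet double-stranded RNA phosphorylate the translation factor eIF2alpha through 4 kinases, encoded by Eif2ak1, Eif2ak2, Eif2ak3 (PERK) and Eif2ak4 (GCN2). Most protein synthesis is then slowed, while upstream reading frames in a few messages, among them Atf4, Atf5, Ddit3 and Ppp1r15a, let those messages be translated better. ATF4 is a basic leucine zipper (bZIP) protein that binds DNA with partners such as C/EBPbeta and C/EBPgamma and turns on genes for amino acid supply, for CHOP, and for the phosphatase adaptor GADD34, which reverses the phosphorylation. Counts of messenger RNA measure neither the phosphorylation of eIF2alpha nor the translation of these messages.

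The DNA just before the start of these genes is shown first, because ATF4 with a C/EBP partner is known to read a composite element, TTGCATCA on 1 strand or the other. The stretches are the 250 bases before the RefSeq gene start on GRCm38.p6, read 5′ to 3′ in the direction of transcription, with the matched motif in capitals. The element was found in Atf3, Chac1 and Nupr1, and the cyclic AMP response element TGACGTCA, which ATF and CREB proteins bind, in Ppp1r15a.
Atf3, chr1:191183334-191183583, minus strand: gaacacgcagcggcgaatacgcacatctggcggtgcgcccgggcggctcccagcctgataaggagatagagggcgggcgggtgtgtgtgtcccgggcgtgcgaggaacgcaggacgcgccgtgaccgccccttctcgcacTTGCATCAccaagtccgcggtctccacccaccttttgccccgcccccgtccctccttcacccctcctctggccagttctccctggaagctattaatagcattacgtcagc
Chac1, chr2:119350992-119351241, plus strand: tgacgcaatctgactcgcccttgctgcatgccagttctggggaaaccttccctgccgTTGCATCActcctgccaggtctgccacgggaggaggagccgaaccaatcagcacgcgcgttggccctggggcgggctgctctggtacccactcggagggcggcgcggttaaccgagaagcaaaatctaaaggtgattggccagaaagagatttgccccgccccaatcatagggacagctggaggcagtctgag
Nupr1, chr7:126625471-126625720, minus strand: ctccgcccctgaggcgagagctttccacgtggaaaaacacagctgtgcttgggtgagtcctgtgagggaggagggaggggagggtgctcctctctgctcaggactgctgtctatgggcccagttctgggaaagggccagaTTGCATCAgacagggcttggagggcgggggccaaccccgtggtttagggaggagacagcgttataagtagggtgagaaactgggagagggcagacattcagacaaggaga
Ppp1r15a, chr7:45526269-45526518, minus strand: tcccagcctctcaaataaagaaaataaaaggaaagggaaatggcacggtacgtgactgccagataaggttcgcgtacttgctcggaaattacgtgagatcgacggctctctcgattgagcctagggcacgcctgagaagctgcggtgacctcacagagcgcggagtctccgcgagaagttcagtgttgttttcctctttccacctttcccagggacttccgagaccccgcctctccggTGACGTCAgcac

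The search covered both strands of the 300 bases from 250 before to 50 after the gene start, in 11 windows of the 10 genes (Atf5 has more than 1 start in RefSeq). TTGCATCA was present in 3 of the 11 windows and in 0.895% of the 32851 windows of all genes. It lay at -110 to -103 from the start in both Atf3 and Nupr1 and at -193 to -186 in Chac1. With 1 base left free, TGATGNAA, which contains every match of the first motif, was present in 4 of the 11 windows and in 3.97% of all windows, and the added gene was Trib3, at 15 to 22 bases after the start (TTACATCA). TGACGTCA was present in 1 of the 11 windows, that of Ppp1r15a at -12 to -5, and in 1.79% of all. The full endoplasmic reticulum stress response element, which ATF6 reads, was present in 0 of the 11 windows and in 0.119% of all. The annotated genes of Atf3 and Nupr1 also reach upstream of the RefSeq start used here. A match describes letters in a window of this length and no binding was measured in these libraries.

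The libraries held 48876982 to 85322092 counted reads each. Replicates were further apart than sampling noise allows (chi-square per gene of 2.87 to 5.25 within the groups), and each was used as a sample. The spread between replicates was nevertheless low (2.78% as a biological coefficient of variation), and an exact permutation test of 2 libraries against 2 cannot give a 2-sided p under 0.333, so all p-values below come from edgeR's quasi-likelihood test, which shares the spread over genes and groups and is adjusted by the Benjamini-Hochberg method over the 18338 genes. Against the label of a melanocyte line, some pigment genes were near 0 in Melan-A. Tyr was at 0.253 to 0.892 CPM, Oca2 at 0.0932 to 0.220 CPM and Gpr143 at 0 to 1 read. Other melanocytic markers were present there, with Dct at 268 to 358 CPM, Tyrp1 at 105 to 143 CPM and Mlana at 99.7 to 119 CPM. Pmel was at 7.53 to 8.70 CPM and Slc45a2 at 5.95 to 7.45 CPM, and Sox10 and Mitf were present. The summed level of the 10 melanocytic markers was 1351 to 1382 CPM in untreated and 1353 to 1361 CPM in treated Melan-A, 19352 to 19450 and 16267 to 16471 CPM in B16F0, and 25220 to 25248 and 15302 to 15551 CPM in B16F10. It was thus lower with SX-682 in both B16 lines, in the libraries where the genes described here were higher, and its part in the results was not tested. Of 4 leukocyte markers the sum was 23.1 to 23.2 CPM in untreated and 48.8 to 49.8 CPM in treated Melan-A, most of it from Cd68, while Ptprc did not exceed 22 reads and Cd3e did not exceed 1 read in any library. The leukocyte sums were at most 16.2 CPM in B16F0, where they were higher with SX-682, and 24.6 to 26.9 CPM in B16F10. Keratinocyte markers summed to at most 3.49 CPM, endothelial markers to at most 2.43 CPM and fibroblast markers to at most 60.9 CPM, of which Col1a1 in Melan-A made up the larger share. In bulk RNA a change in the share of cells that carry a message and a change in RNA per cell cannot be told apart.

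SX-682 raised nearly the whole group of genes in all 3 lines. At an adjusted p under 0.05, 10 of the 10 genes rose in both B16F0 and B16F10 and 9 of the 10 in Melan-A, and 0 of 10 fell in any line. Among all tested genes 23.4% rose and 24.7% fell in Melan-A, 25.1% rose and 25.0% fell in B16F0, and 25.5% rose and 25.3% fell in B16F10, so passing this threshold alone was common. A rise of at least 1 log2 unit (2-fold) was less common: it was met by 6 of the 10 genes in Melan-A against 2.75% of all tested genes, by 8 of 10 in B16F0 against 4.67%, and by 8 of 10 in B16F10 against 4.76%. The 10 genes had a median log2 fold change of 2.18 in B16F10, 1.69 in B16F0 and 1.36 in Melan-A, and the median over all tested genes was 0 in each line.

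**Figure D1:**
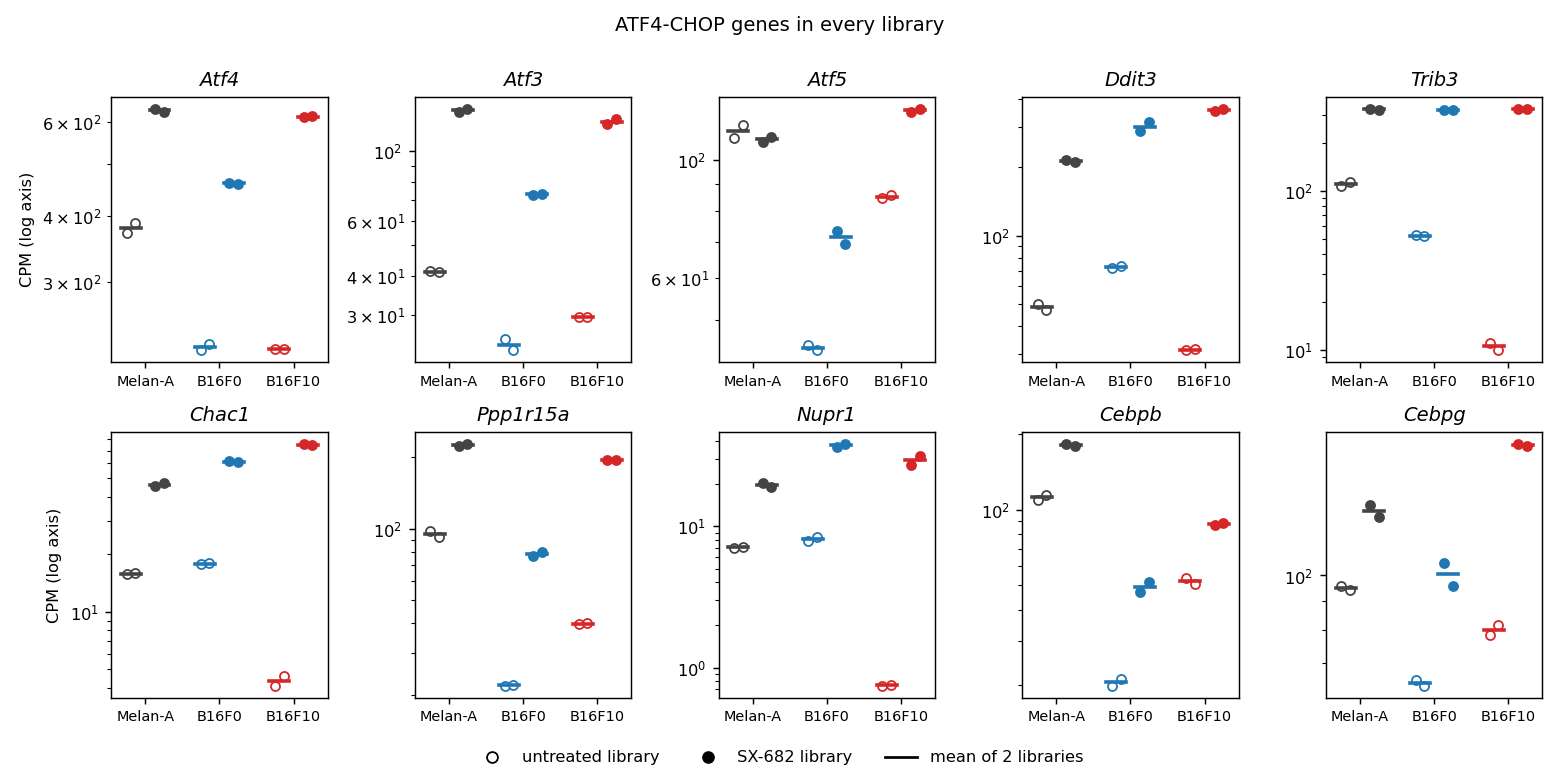
Level of the 10 genes in every library, in CPM (reads of the gene scaled to a common library size, log axis, a separate scale for each gene), with open circles for untreated and filled circles for SX-682 libraries of Melan-A (black), B16F0 (blue) and B16F10 (red), and a line at the mean of 2 libraries. The filled circles lie above the open ones of the same line in every panel except Atf5 in Melan-A, where 108 and 111 CPM with SX-682 lie beside 110 and 117 CPM without.

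Atf4 (ENSMUSG00000042406.8, chr15:80255184-80257541), the central activator, rose in each line. Levels are given in CPM, the reads of a gene scaled by TMM to a common library size, in the order of the 2 replicates. In Melan-A they were 371 and 388 untreated and 635 and 626 with SX-682, a log2 fold change of 0.73 (SE 0.0236, adjusted p = 8.11e-21). In B16F0 they were 224 and 230 untreated and 461 and 459 with SX-682 (log2 fold change 1.02, SE 0.0244, adjusted p = 3.9e-24). In B16F10 they were 225 and 225 untreated and 612 and 614 with SX-682 (log2 fold change 1.45, SE 0.0245, adjusted p = 6.26e-28). No treated library overlapped an untreated library of its line. The change in B16F0 lay close to the limit of 1 log2 unit, and without untreated replicate 1 of B16F0 7 rather than 8 of the 10 genes met that limit there.

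Among the partners of ATF4, Cebpb (ENSMUSG00000056501.3, chr2:167688915-167690418), the gene of C/EBPbeta, was at 109 and 115 CPM in untreated and 183 and 180 CPM in treated Melan-A, at 19.9 and 21.3 and then 47.1 and 51.6 CPM in B16F0, and at 53.3 and 50.5 and then 87.3 and 88.9 CPM in B16F10. Its log2 fold changes were 0.69 (SE 0.0365), 1.26 (SE 0.0479) and 0.76 (SE 0.0412), so that B16F0, the line with the lowest untreated level, had the largest change. Of the annotated exonic bases of Cebpb 20.7% also belong to Tmem189 on the opposite strand, and since the sources used here do not say whether counting used the strand, reads there may have been assigned to either gene. Cebpg (ENSMUSG00000056216.9, chr7:35046422-35056573), the gene of C/EBPgamma, a partner without an activation domain of its own, was at 95.7 and 94.3 CPM in untreated and 134 and 127 CPM in treated Melan-A. In B16F0 it was at 65.4 and 63.8 and then 105 and 95.7 CPM, and in B16F10 at 78.5 and 81.8 and then 171 and 170 CPM. Its changes were the smallest called among the 10 genes in Melan-A and B16F0, at 0.45 (SE 0.036) and 0.64 (SE 0.0386), and reached 1.09 (SE 0.0373) in B16F10.

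Atf5 (ENSMUSG00000038539.15, chr7:44812256-44816658), a bZIP factor of the same subfamily that also governs the mitochondrial stress response, was the exception. It was at 110 and 117 CPM in untreated and 108 and 111 CPM in treated Melan-A (log2 fold change -0.05, 95% interval -0.12 to 0.02, adjusted p = 0.223), and these libraries overlapped. In B16F0 it was at 44.7 and 43.8 CPM untreated and 73.6 and 69.6 CPM with SX-682 (0.70, SE 0.0382, adjusted p = 1.6e-15). In B16F10 it was at 84.7 and 86.0 CPM untreated and 123 and 125 CPM with SX-682 (0.54, SE 0.035, adjusted p = 5.65e-14). The treated and untreated libraries of both B16 lines stood apart. Atf5 shares 4.11% of its exonic bases with each of Il4i1 and Nup62 on the opposite strand.

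Ddit3 (ENSMUSG00000025408.15, chr10:127290774-127296288) encodes CHOP, the factor that carries prolonged stress toward cell death. In Melan-A it was at 49.8 and 47.2 CPM untreated and 216 and 211 CPM with SX-682, 4.41-fold higher (log2 fold change 2.14, 95% interval 2.07 to 2.22). In B16F0 it was at 71.7 and 73.4 CPM and then 287 and 316 CPM, 4.15-fold higher (2.05, interval 1.98 to 2.13). In B16F10 it was at 31.3 and 31.7 CPM and then 353 and 361 CPM, 11.3-fold higher (3.50, interval 3.42 to 3.59). B16F10 was thus the lowest of the 3 lines without treatment and the highest with it. Of all 18338 tested genes ranked by log2 fold change, Ddit3 was at rank 228 in Melan-A, 250 in B16F10 and 719 in B16F0. It shares 3.97% of its exonic bases with Mars and 0.759% with Gm4189, both on the opposite strand. A further 6.13% overlap is with a second annotated Ddit3 entry on the same strand, which was not among the genes counted.

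Atf3 (ENSMUSG00000026628.13, chr1:191170296-191218039), a stress-induced bZIP repressor downstream of ATF4, was at 41.3 and 41.0 CPM in untreated and 133 and 137 CPM in treated Melan-A (log2 fold change 1.72, SE 0.0369). In B16F0 it was at 25.0 and 23.1 CPM and then 72.5 and 73.3 CPM (1.60, SE 0.0418), and in B16F10 at 29.5 and 29.4 CPM and then 122 and 127 CPM (2.08, SE 0.0401). Its responses spanned the narrowest range over the lines of any of the 10 genes, 0.48 log2 units.

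Trib3 (ENSMUSG00000032715.9, chr2:152337422-152344032), a pseudokinase induced by ATF4 and CHOP that restrains both and AKT signalling, differed widely between the untreated lines and had the narrowest range of the 10 genes over the treated ones. In Melan-A it was at 107 and 112 CPM untreated and 327 and 321 CPM with SX-682 (log2 fold change 1.56, SE 0.029). In B16F0 it was at 52.6 and 51.8 CPM and then 322 and 319 CPM (2.62, interval 2.55 to 2.68). In B16F10 it was at 11.1 and 9.93 CPM and then 325 and 326 CPM (4.95, interval 4.87 to 5.03), 31.0-fold higher. All 6 treated libraries lay between 319 and 327 CPM.

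Chac1 (ENSMUSG00000027313.3, chr2:119351229-119354381), an enzyme that breaks down glutathione, showed a like order of responses. It was at 15.8 and 15.9 CPM in untreated and 45.7 and 47.1 CPM in treated Melan-A (1.55, interval 1.45 to 1.65) and at 17.8 and 18.0 and then 61.7 and 60.9 CPM in B16F0 (1.78, interval 1.68 to 1.88). In B16F10 it was at 4.10 and 4.60 CPM, from 248 and 294 reads, and then at 75.6 and 74.9 CPM (4.11, interval 3.99 to 4.24), 17.3-fold higher.

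Nupr1 (ENSMUSG00000030717.9, chr7:126623249-126630861), a small chromatin-associated stress protein, was the least abundant of the group. It was at 7.02 and 7.14 CPM in untreated and 20.3 and 19.0 CPM in treated Melan-A (1.47, interval 1.32 to 1.63). In B16F0 it was at 7.80 and 8.31 CPM and then 36.4 and 38.0 CPM (2.21, interval 2.05 to 2.37). In B16F10 it was at 0.744 and 0.751 CPM, from 45 and 48 reads, and then at 26.9 and 31.4 CPM (5.28, interval 5.04 to 5.52). This 38.9-fold rise put Nupr1 at rank 47 of the 18338 tested genes in B16F10, with Trib3 at rank 81, Chac1 at 179 and Ddit3 at 250. Both untreated B16F10 libraries were above the floor of 3 reads.

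Ppp1r15a (ENSMUSG00000040435.12, chr7:45522916-45526268) encodes GADD34, the stress-induced adaptor that brings protein phosphatase 1 to eIF2alpha and closes the loop. It was at 97.5 and 92.3 CPM in untreated and 222 and 227 CPM in treated Melan-A (1.24, SE 0.0314). In B16F0 it was at 21.8 and 22.0 CPM and then 76.4 and 80.1 CPM (1.83, SE 0.0393), and in B16F10 at 39.5 and 40.2 CPM and then 195 and 194 CPM (2.28, SE 0.0353). In all 3 lines the treated libraries lay above the untreated ones by more than the gap between replicates. Its uninduced counterpart Ppp1r15b changed little, by -0.10 in Melan-A and by 0.21 in each B16 line, each called, but the Melan-A call was lost without untreated replicate 1 of Melan-A (adjusted p = 0.0728) or treated replicate 2 (adjusted p = 0.261).

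**Figure D2:**
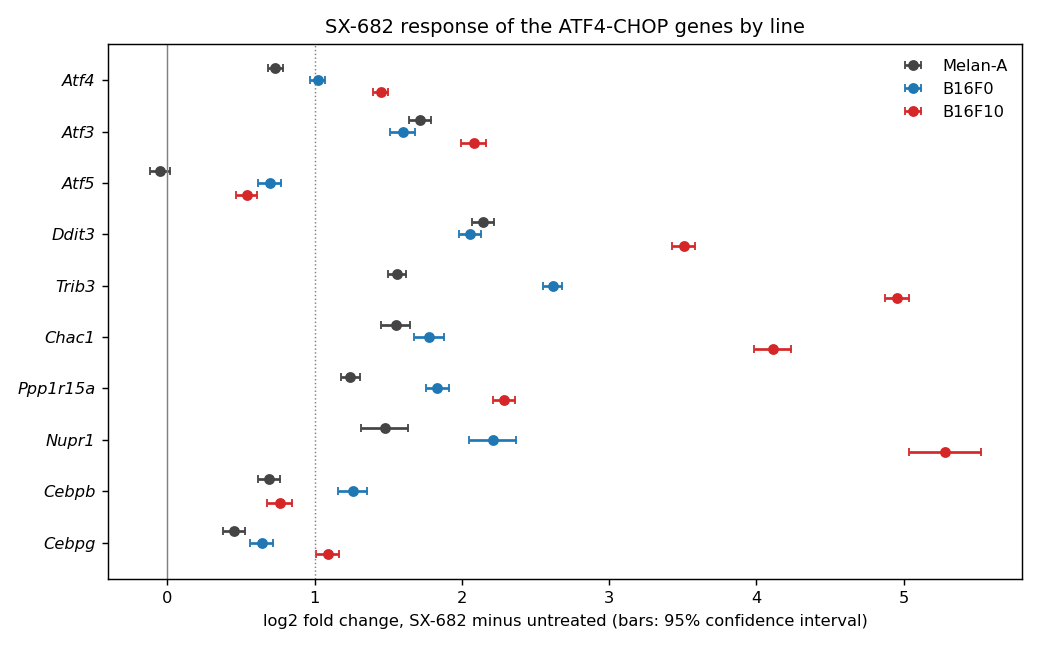
Log2 fold change of the 10 genes, SX-682 minus untreated, in Melan-A (black), B16F0 (blue) and B16F10 (red), with bars for the 95% confidence interval and a dotted line at 1 log2 unit. The B16F10 point lies furthest right for 8 genes, reaching 5.28 for Nupr1 and 4.95 for Trib3, and the B16F0 point for Atf5 and Cebpb.

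Per length, Atf4 was the most abundant message of the group in every group of libraries. Its level per kilobase of exon and scaled to library size (RPKM) was 161 ± 5.14 (SD, n = 2) in untreated Melan-A, 96.2 ± 1.99 in untreated B16F0 and 95.3 ± 0.00569 in untreated B16F10, and 267 ± 2.66, 195 ± 0.802 and 260 ± 0.795 with SX-682. Ddit3 came next after Atf4 with SX-682 in the B16 lines, at 176 ± 11.7 RPKM in B16F0 and 209 ± 3.35 RPKM in B16F10, while in treated Melan-A Trib3 (152 ± 1.92 RPKM) lay above Ddit3 (125 ± 1.83 RPKM). Nupr1 had the lowest level in every group, from 0.297 ± 0.00192 RPKM in untreated B16F10 to 14.8 ± 0.445 RPKM in treated B16F0. These values rest on the annotated exon lengths and are not adjusted for which transcripts were used.

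Without treatment, the pathway genes stood highest in Melan-A with few exceptions. B16F10 was lower than Melan-A for 10 of the 10 genes, against 40.8% of all tested genes, and higher for 0 of 10, against 33.4%. B16F0 was lower than Melan-A for 7 of the 10, against 40.6%, and higher for 2, Ddit3 (log2 difference 0.58, SE 0.0379) and Chac1 (0.18, SE 0.0528), against 35.3%. Nupr1 did not pass there (0.18, 95% interval 0.01 to 0.36, adjusted p = 0.0529). The largest differences of B16F0 from Melan-A were those of Cebpb (-2.45, SE 0.0441) and Ppp1r15a (-2.11, SE 0.0379). For B16F10 they were those of Trib3 (-3.39, SE 0.041) and Nupr1 (-3.24, SE 0.139).

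Between the untreated B16 lines the 10 genes went both ways, as did the tested genes as a whole. In untreated B16F10 compared with untreated B16F0, 5 of the 10 genes were higher, against 30.8% of all tested genes: Cebpb (1.34), Atf5 (0.95), Ppp1r15a (0.86), Cebpg (0.31) and Atf3 (0.29). The 4 that were lower, against 31.2%, were Nupr1 (-3.42), Trib3 (-2.31), Chac1 (-2.04) and Ddit3 (-1.20). Atf4 itself did not pass (-0.01, 95% interval -0.06 to 0.04, adjusted p = 0.664). The 3 comparisons of untreated lines share their libraries, and their values are not independent.

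The response to SX-682 was tested for a difference between the lines themselves. Over the 3 lines together, it differed for 10 of the 10 genes, against 47.4% of all tested genes. In B16F10 compared with B16F0, the response was larger for 8 of the 10, against 15.3% of tested genes, led by Nupr1 (log2 difference of responses 3.07, SE 0.162), Trib3 (2.34, SE 0.0529), Chac1 (2.33, SE 0.0823) and Ddit3 (1.45, SE 0.0529). It was smaller for 2, against 14.9%: Cebpb (-0.50, SE 0.0634) and Atf5 (-0.16, SE 0.0517, adjusted p = 0.0212). The call for Atf5 was lost without untreated replicate 2 of B16F0 (adjusted p = 0.0865), treated replicate 1 of B16F0 (0.129), untreated replicate 2 of B16F10 (0.062) or treated replicate 1 of B16F10 (0.0571).

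In B16F10 compared with Melan-A, the response was larger for 9 of the 10 genes, against 17.8% of tested genes. The differences were 3.81 for Nupr1 (SE 0.158), 3.39 for Trib3 (SE 0.0505), 2.56 for Chac1 (SE 0.0816), 1.36 for Ddit3 (SE 0.0534), 1.04 for Ppp1r15a (SE 0.0471) and 0.72 for Atf4 (SE 0.0338), and between 0.36 and 0.63 for Atf3, Atf5 and Cebpg. Cebpb did not pass (0.07, 95% interval -0.04 to 0.18, adjusted p = 0.376).

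B16F0 and Melan-A were closer. The response of B16F0 was larger for 8 of the 10 genes, against 17.7% of tested genes, and smaller for 0, against 16.6%. Trib3 led with a log2 difference of 1.06 (SE 0.0423), before Atf5 (0.75), Nupr1 (0.73), Ppp1r15a (0.59), Cebpb (0.57), Atf4 (0.29), Chac1 (0.23) and Cebpg (0.19). Ddit3 (-0.09, 95% interval -0.19 to 0.02, adjusted p = 0.201) and Atf3 (-0.12, adjusted p = 0.109) did not pass. Single libraries decided several of the smaller values. Chac1 lost its call without treated replicate 1 of Melan-A (adjusted p = 0.0682) or untreated replicate 1 of B16F0 (0.053), and Cebpg without treated replicate 2 of Melan-A (0.0664) or treated replicate 1 of B16F0 (0.136). Ddit3 passed as smaller in B16F0 without untreated replicate 1 of Melan-A (0.0488) or treated replicate 2 of B16F0 (0.00389), and Atf3 without untreated replicate 2 of B16F0 (0.0263). The number of the 10 genes with a smaller response in B16F0 was then 1 in place of 0.

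**Figure D3:**
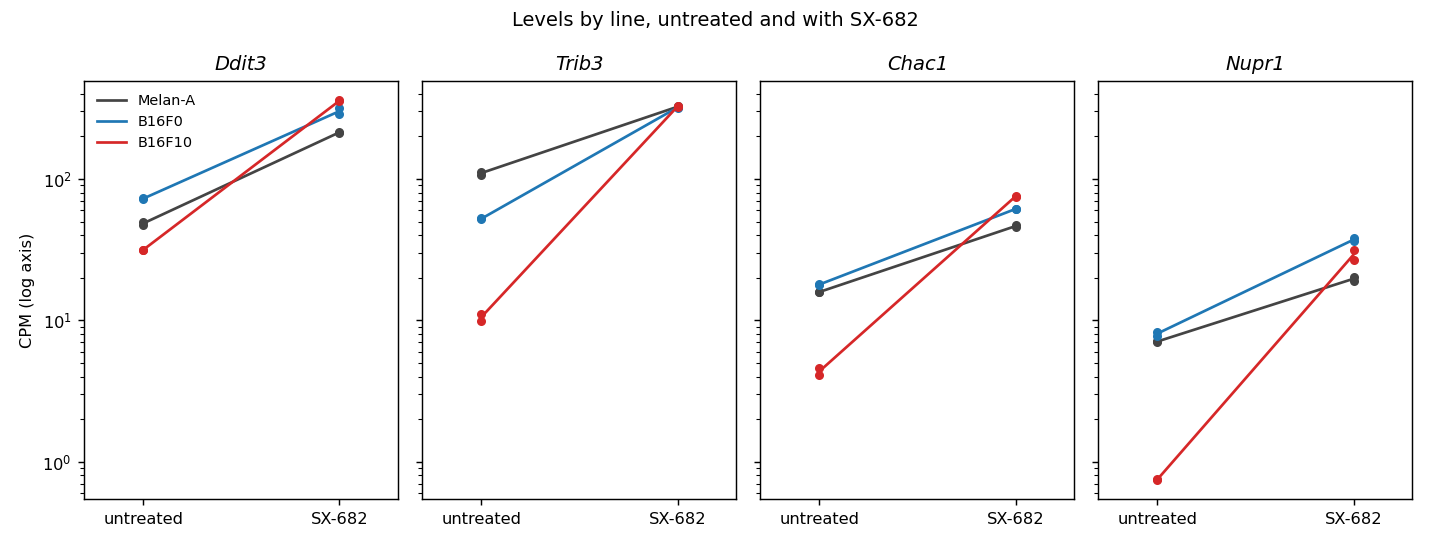
Level of Ddit3, Trib3, Chac1 and Nupr1 in CPM (log axis, shared by the panels), untreated and with SX-682, for Melan-A (black), B16F0 (blue) and B16F10 (red), with a point per library and lines through the means of 2 libraries that do not pair single libraries. Trib3 runs from means of 110, 52.2 and 10.5 CPM to 324, 320 and 325 CPM, and for Ddit3 and Chac1 B16F10 is the lowest line on the left and the highest on the right.

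The levels reached with SX-682 were compared between the lines in a comparison added after the data had been seen. It is bound to the others by arithmetic, since a difference of responses is the treated difference minus the untreated one. Trib3 did not differ between any pair of treated lines, with log2 differences of -0.02 for B16F0 minus Melan-A (95% interval -0.07 to 0.04, adjusted p = 0.598), 0.01 for B16F10 minus Melan-A (-0.05 to 0.06, adjusted p = 0.844) and 0.02 for B16F10 minus B16F0 (-0.03 to 0.08, adjusted p = 0.497). Under another scaling of the libraries the B16F10 minus Melan-A value turned to -0.04 and with only genes of at least 10 reads in every library to -0.07, which passed (adjusted p = 0.018). Atf4 did not pass between treated B16F10 and treated Melan-A (-0.04, interval -0.09 to 0.01, adjusted p = 0.122), but did with the other scaling (-0.08, adjusted p = 0.00205).

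With SX-682, B16F0 was higher than Melan-A for 3 of the 10 genes (Ddit3, Chac1 and Nupr1), against 35.2% of all tested genes, and lower for 6, against 40.1%. B16F10 was higher than Melan-A for 5 (Atf5, Ddit3, Chac1, Nupr1 and Cebpg), against 33.6%, and lower for 3 (Atf3, Ppp1r15a and Cebpb), against 40.3%. B16F10 was higher than B16F0 for 8, against 31.3%, and lower for Nupr1 alone (-0.35, SE 0.0685), against 31.2%. For Ddit3 the order of all 3 treated lines was B16F10 over B16F0 (0.25, SE 0.0327) over Melan-A (0.50, SE 0.033), and for Chac1 the order was the same, by 0.30 (SE 0.0435) and 0.40 (SE 0.0443).

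The spread of a gene over the 3 lines, the highest minus the lowest group mean on the scale of log2 (CPM + 0.05), was narrower with SX-682 for 8 of the 10 genes and for 47.9% of all tested genes. It went from 3.38 to 0.02 for Trib3, from 3.34 to 0.92 for Nupr1, from 2.03 to 0.70 for Chac1, from 1.20 to 0.74 for Ddit3 and from 0.76 to 0.45 for Atf4. Atf3 (0.78 to 0.89) and Cebpg (0.56 to 0.76) were wider with SX-682. The median spread of the 10 genes went from 1.69 to 0.78 log2 units, and that of all tested genes from 0.95 to 0.98. This summary was also chosen after the data had been seen and carries no test.

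The genes whose profiles over the 12 libraries lay closest to Atf4, Ddit3 and Trib3 were taken by the root mean square difference of centred log2 CPM among 10957 genes with a mean log2 CPM of at least 1. The 12 libraries share their groups, so the distance is a description. For Trib3 they were Akr1b7, an aldo-keto reductase (0.468), Nupr1 (0.482) and Chac1 (0.587), against a median of 1.88 over all candidates. The log2 fold change of Akr1b7 was 5.54 in B16F10, 2.39 in B16F0 and 2.05 in Melan-A. Of its exonic bases 27.2% are shared with a pseudogene on the opposite strand. For Ddit3 they were Acot2, an acyl-CoA thioesterase of mitochondria (0.342), Chac1 (0.372) and the pseudogene Gm3365 (0.380), against a median of 1.42. For Atf4 they were Ypel5 (0.0812), Arl14ep (0.117) and the histone demethylase gene Kdm7a (0.129), against a median of 0.728. Ypel5 rose by 1.30 log2 units in B16F10, 0.996 in B16F0 and 0.65 in Melan-A, beside 1.45, 1.02 and 0.73 for Atf4.

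Other genes of the pathway were followed in 5 lists. The lists were written with earlier results of these data known, so their counts are not an independent check. The genes of the kinases that act upstream all fell in both B16 lines, beside 25.0% of all tested genes in B16F0 and 25.3% in B16F10. In Melan-A they did not move together. Eif2ak2, encoding PKR, fell in all 3 lines, with log2 fold changes of -0.53, -1.18 and -1.04 in the order Melan-A, B16F0, B16F10, which holds for all triplets below, and Eif2ak1, encoding the haem-regulated kinase, by -0.19, -0.28 and -0.29. Eif2ak3, encoding PERK, rose in Melan-A (0.39) and fell in B16F0 (-0.58) and B16F10 (-0.18), a difference among the lines that passed (adjusted p = 1.88e-14). Eif2ak4, encoding GCN2, did not pass in Melan-A (0.02, adjusted p = 0.729) and fell in B16F0 (-0.16) and B16F10 (-0.14), but the B16F0 call was lost without untreated replicate 2 of B16F0 (adjusted p = 0.0605) and the B16F10 call without untreated replicate 2 of B16F10 (0.0639) or treated replicate 1 of B16F10 (0.0814). Of the 17 genes in the list of kinases, eIF2 subunits, eIF2B subunits and regulators, in Melan-A 5 rose and 5 fell, in B16F0 7 rose and 6 fell, and in B16F10 8 rose and 6 fell, with medians of -0.0063, 0.05 and 0.05. Of all tested genes 23.4% rose and 24.7% fell in Melan-A, 25.1% and 25.0% in B16F0, and 25.5% and 25.3% in B16F10, and the counts of the lists that follow stand beside the same shares. The number that fell in Melan-A was 3 without untreated replicate 1 of Melan-A and 2 without treated replicate 2. Eif2s2, the beta subunit of eIF2, had the largest rise shared by the lines (0.29, 0.40 and 0.69), before Eif2b5, the catalytic subunit of eIF2B (0.24, 0.21 and 0.22).

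Of 20 further genes of the C/EBP, ATF, AP-1 and related bZIP families, 19 were tested, and Cebpe was not. In Melan-A 12 rose and 3 fell, in B16F0 14 rose and 3 fell, and in B16F10 12 rose and 5 fell, with medians of 0.32, 0.47 and 0.26. In all 3 lines 8 rose and 0 fell, where 11.3% of all tested genes rose and 11.7% fell in all 3. Junb rose by 1.42, 1.01 and 1.25 and Atf6, the sensor of the third branch of the unfolded protein response, by 0.49, 0.85 and 0.78. Nfe2l1 (0.45, 1.33 and 1.41), which drives proteasome genes, and Jdp2 (0.28, 0.65 and 1.16), a bZIP repressor, rose in each line by amounts that differed among the lines (adjusted p = 7e-21 and 2.43e-11). Other relatives turned with the line: Jun fell in Melan-A (-0.72) and rose in B16F0 (0.86) and B16F10 (0.35), Fos rose in Melan-A (0.55) and B16F0 (0.47) and fell in B16F10 (-1.94), and Cebpd rose in Melan-A (0.56) and fell in B16F10 (-0.66). The fall of Cebpd in B16F0 (-0.30) lost its call without untreated replicate 1 of B16F0 (adjusted p = 0.0658) or treated replicate 1 (0.083).

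The known metabolic and transport targets of ATF4 rose alongside the 10 genes. Of 25 such genes, all tested, 22 rose and 1 fell in Melan-A and 23 rose and 1 fell in each B16 line, with median log2 fold changes of 0.63, 0.78 and 1.25, where 23.4% to 25.5% of all tested genes rose and 24.7% to 25.3% fell. In all 3 lines 21 rose and 1 fell, against 11.3% and 11.7% of all tested genes. Slc3a2, the heavy chain shared by several amino acid exchangers, rose by 1.69, 1.53 and 2.17, and Pycr1, of proline synthesis, by 1.56, 1.71 and 3.15. The gene that fell in every line was Slc38a2, a glutamine and neutral amino acid carrier, by -0.46, -1.28 and -0.75. A rise of at least 1 log2 unit was met by 15 of the 25 in B16F10, 9 in B16F0 and 3 in Melan-A, against 4.76%, 4.67% and 2.75% of all tested genes.

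Of 20 genes of growth control, survival and secreted factors linked to ATF4 and CHOP, 19 were tested, and Pmaip1 was not. In each line 12 rose, while 2 fell in Melan-A and 4 in each B16 line, with medians of 0.48, 0.39 and 0.61, beside 23.4% to 25.5% raised and 24.7% to 25.3% lowered among all tested genes. In all 3 lines 7 rose and 1 fell, against 11.3% and 11.7%. Bbc3, encoding the BH3-only protein PUMA, rose by 1.41, 2.12 and 2.08, and Gadd45a, a growth arrest gene, by 1.21, 2.38 and 2.84. Car6, a secreted carbonic anhydrase of which a stress-induced form is known, fell by -0.38, -0.30 and -0.40.

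The other branches of the unfolded protein response, driven by IRE1 with XBP1 and by ATF6, were followed through their targets. Of 16 of their targets, all tested, 6 rose and 4 fell in Melan-A, 2 rose and 12 fell in B16F0, and 2 rose and 13 fell in B16F10, with medians of -0.0047, -0.38 and -0.40. Of all tested genes 23.4%, 25.1% and 25.5% rose and 24.7%, 25.0% and 25.3% fell, so that the share of these targets that fell in Melan-A was near that of all genes. Herpud1, of endoplasmic reticulum-associated degradation and also known to be induced through ATF4, rose by 1.32, 0.55 and 1.31, and Ern1, which encodes IRE1 itself, by 0.77, 0.53 and 0.38. Dnajc3, a chaperone that also inhibits PERK, fell by -0.49, -0.81 and -1.15, and Manf, a secreted stress protein, by -0.43, -0.80 and -0.80. Xbp1 rose in Melan-A (0.52) and fell in B16F0 (-0.67) and B16F10 (-0.25). These counts are of annotated genes, so the splicing of Xbp1 by IRE1 is not read here.

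**Figure D4:**
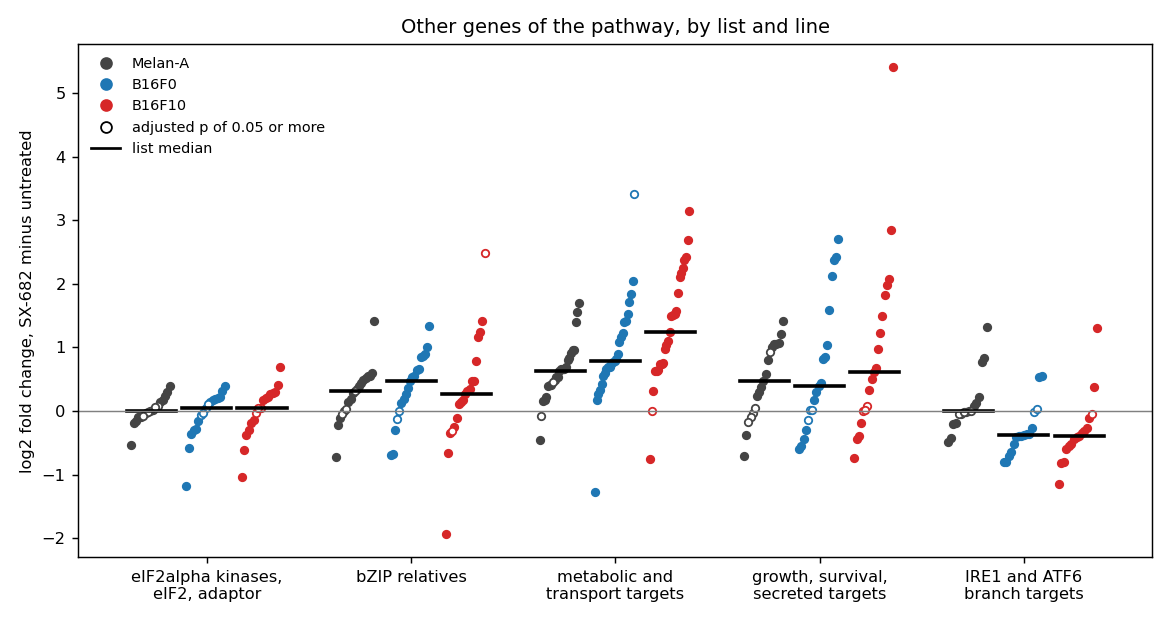
Log2 fold change, SX-682 minus untreated, of each tested gene in the 5 lists of other pathway genes, in Melan-A (black), B16F0 (blue) and B16F10 (red), with open points where the adjusted p was 0.05 or more and a line at the list median. The metabolic and transport targets have medians of 0.63, 0.78 and 1.25, and the IRE1 and ATF6 branch targets of -0.0047, -0.38 and -0.40.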

How the data were processed

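Total RNA from cultured cells of 3 mouse lines was sequenced in 12 libraries, 2 per line and treatment, grouped by the labels. The submitters' processing notes name cutadapt, STAR, DESeq2 and the genome build mm10; their versions, the counting program and its use of strand are not given in the sources used here. The authors deposited raw counts of reads per gene, without normalization, for 34513 genes, with symbols, lengths and GRCm38 coordinates, which match GENCODE M21 for the 10 genes described. All columns of the table were matched to a library by name. Totals were 48876982 to 85322092 counts per library, and floors (3 counts) cover counting error only.

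From these counts, edgeR 4.0.16 (R 4.3.3) was run on all 12 libraries in 1 fit with a coefficient per group, scaling by TMM, the filter filterByExpr, which left 18338 genes, a prior count of 0.125, and the quasi-likelihood F-test with p-values adjusted over all genes tested by Benjamini-Hochberg (threshold 0.05). The fit had 6 residual and 21.9 prior degrees of freedom. A further count used an adjusted p under 0.05 with a rise of at least 1 log2 unit. CPM used TMM-scaled library sizes, and RPKM the deposited lengths. Standard errors and intervals were derived from the F statistic. The fit was also run on simulated counts drawn with the spread fitted to these libraries. Such counts cannot check the error rate between separate cultures.

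All 10 genes were named, and from each list the 2 genes with the largest rise and the 2 with the largest fall called in all 3 lines, ranked by the smallest of the 3 changes; in the lists of kinases and of bZIP relatives any tested gene could be named. The 3 nearest profiles to Atf4, Ddit3 and Trib3 were named by distance. Xbp1 belongs to the list of bZIP relatives. The genes and lists were chosen with earlier results of these data known. Promoter motifs were chosen after the data were seen, as were the comparison of treated levels and the range over lines.

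Alternatives were DESeq2 1.42.0, RLE size factors, leaving the filter out or asking for at least 10 counts per gene in each library, the replicate number as a block, a prior count of 2, a test against a log2 change of 0.5, each line fitted alone, and each library left out.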

Additional observations from a re-analysis of the deposited data

Results flagged for a closer look

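The response to SX-682 differed among the 3 lines for each of the 10 genes by an F-test on the differences of responses in edgeR's quasi-likelihood model. The value given is the range of the log2 fold change over the lines, the largest minus the smallest. It was 3.81 for Nupr1 (adjusted p = 2.35e-17), 3.39 for Trib3 (adjusted p = 8.61e-28), 2.56 for Chac1 (adjusted p = 1.49e-20) and 1.45 for Ddit3 (adjusted p = 1.43e-19), and in each of these B16F10 had the largest change. Ppp1r15a followed with 1.04 (adjusted p = 2e-16) and Atf4 with 0.72 (adjusted p = 6.03e-16). For Atf5 the range was 0.75 (adjusted p = 4.1e-13), with the smallest change in Melan-A and the largest in B16F0, and for Cebpb it was 0.57 (adjusted p = 1.22e-08), again with the largest change in B16F0. Cebpg had 0.63 (adjusted p = 7.9e-11) and Atf3 0.48 (adjusted p = 1.01e-07). Of all tested genes 47.4% passed this test.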

How the results depend on the processing

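The counts of pathway genes and of all genes were recomputed under each alternative, where 969 values stayed within 1.5 times the reported one and 13 did not. The log2 changes of the 10 genes kept direction and call in 1610 cases, with 7 gained, 8 lost and 7 of reversed sign. Among the 1610, Chac1 and Nupr1 were counted 2 times for the response in each line and for the test over the 3 lines. With only genes of at least 10 counts in every library, 473 genes in B16F10, 328 in B16F0 and 225 in Melan-A rose by at least 1 log2 unit (872, 856 and 504 as reported), where fewer genes were tested, and 5 rather than 3 of the 10 genes were lower in treated B16F10 than in treated Melan-A. Leaving out 1 library at a time gave 2 to 5 lowered genes in the kinase list in Melan-A, 0 to 1 of the 10 genes with a smaller response in B16F0 than in Melan-A, and 1 to 2 with a smaller response in B16F10 than in B16F0. Reversals were confined to differences near 0. The treated level of Trib3 in B16F10 minus Melan-A, 0.01 as reported, became -0.038 with DESeq2, -0.038 with RLE scaling and -0.072 with at least 10 counts, and it ran from -0.011 to 0.0091 when 1 library was left out. In B16F10 minus B16F0 it became -0.019 with at least 10 counts, and the untreated level of Atf4 in that pair ran from -0.028 to 0.011 when 1 library was left out. The cause was not tested.

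Libraries of the same number did not deviate together (r between -0.0127 and 0.0031 in the 3 lines), and the labels give the number no meaning, so pairing was not used. Under such a block the numbers of the 10 genes that rose were 9, 10 and 10 in Melan-A, B16F0 and B16F10, and those of all genes 4232, 4525 and 4617 (replicate block). The block added a call for the untreated level of Nupr1 in B16F0 minus Melan-A (0.19, adjusted p = 0.0473) and changed no other call of the 10 genes. Untreated B16F10 held 45 and 48 reads of Nupr1, which limits the precision of its change.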
